A study of Mus musculus with 21 samples.

Results

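The genes described here encode 9 proteins of the complement system in mouse hearts: the subunits of C1q (*C1qa*, *C1qb* and *C1qc*), the C1 proteases (*C1ra* and *C1s1*), *C4b*, the central component *C3*, the C1 inhibitor *Serping1* and the C3a receptor *C3ar1*. They were picked by name from the 56691 genes of the table, with earlier results of these data known. All 9 passed the expression minimum, a mean over the 21 libraries of at least 0.5 FPKM (fragments per kilobase of gene, scaled to the size of the library), and so were among the 13990 genes tested. Heart RNA was sequenced from 4 groups of mice. The Control group (5 libraries) had no tumor and received normal saline, and the DOX group (5) had no tumor and received doxorubicin, an anthracycline given against cancer. The Tb group (6) carried subcutaneous tumors of 4T1 cells, a mouse breast cancer line, and received normal saline with no doxorubicin. The Tb-DOX group (5) carried the same tumors and received doxorubicin. Doxorubicin was injected intraperitoneally at 5 mg/kg once a week, 3 times in all. Strain, sex and age are not given in the sources used here. As source, the labels list the tumor line for all libraries, although the methods describe tissue of treated mice. Cardiomyocyte markers summed to between 7604 and 15840 scaled FPKM per library, and 4 epithelial markers of the tumor line to at most 2.44, so the libraries are described as heart.

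Complement is a cascade of blood and tissue proteins that tags targets for removal. In the classical pathway C1q binds its target, C1r activates C1s, and C1s cleaves C4 and C2. The enzyme formed cleaves C3, on which all complement pathways meet. The fragment C3a signals through its receptor, and C1 inhibitor, a serpin, blocks C1r and C1s. Most circulating complement is made by the liver. C1q is made largely by tissue macrophages, whereas fibroblasts can make C1r, C1s, C3 and C1 inhibitor.

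The C1q genes lie side by side on the minus strand of chromosome 4 in the coordinates of the table, for which the submitters' processing notes name GRCm39: *C1qb* (ENSMUSG00000036905) at 136607440 to 136613498, *C1qc* (ENSMUSG00000036896) at 136617115 to 136620376 and *C1qa* (ENSMUSG00000036887) at 136623228 to 136626114. *C1ra* (ENSMUSG00000055172, plus strand, 124489364 to 124500402) and *C1s1* (ENSMUSG00000038521, minus strand, 124507304 to 124519318) are neighbours on chromosome 6, which also holds *C3ar1* (ENSMUSG00000040552, minus strand, 122824097 to 122833120). *C4b* (ENSMUSG00000073418, 34947354 to 34962856) and *C3* (ENSMUSG00000024164, 57510970 to 57535136) are on the minus strand of chromosome 17, and *Serping1* (ENSMUSG00000023224, 84595731 to 84605788) is on that of chromosome 2.

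The 250 bases before the start of *C1qb*, whose group of genes fell with DOX, and of *C3*, which was higher with a tumor, are shown from the RefSeq promoter table of GRCm38.p6. They are written 5′ to 3′ on the gene's own strand, at chr4:136886201-136886450 (minus strand) for *C1qb* and chr17:57228137-57228386 (minus strand) for *C3*, and neither window overlaps an exon of GENCODE M21. Capitals mark a match to the PU.1 core, the letters GAGGAA, which PU.1, a factor of the macrophage lineage, is known to bind.
C1qb: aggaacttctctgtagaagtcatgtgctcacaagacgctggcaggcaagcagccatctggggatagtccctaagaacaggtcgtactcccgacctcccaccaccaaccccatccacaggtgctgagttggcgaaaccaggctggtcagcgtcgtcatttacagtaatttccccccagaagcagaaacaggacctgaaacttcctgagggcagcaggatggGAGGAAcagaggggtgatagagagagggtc
C3: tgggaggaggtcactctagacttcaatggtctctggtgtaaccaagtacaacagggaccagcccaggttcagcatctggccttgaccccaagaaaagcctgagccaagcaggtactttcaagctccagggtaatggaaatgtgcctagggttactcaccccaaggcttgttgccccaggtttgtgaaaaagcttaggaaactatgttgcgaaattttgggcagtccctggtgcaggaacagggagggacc
In *C1qb* this match lies 30 to 25 bases before the start. Promoters of 6 of the 9 genes were found in the table, which are *C1qb*, *C1qc*, *C1ra*, *C1s1*, *C3* and *C3ar1*. On either strand, the PU.1 core was also found in *C1qc*, 193 to 188 bases before the start, and in 23.3% of all 32851 promoters of this length. The core of an interferon-stimulated response element, a pair of GAAA with 2 bases of any kind between them (2.98% of promoters), and the letters TTCNNNGAA, which STAT factors bind (7.02%), were found in none of the 6 genes, and a TATA box (TATAAA, 12.4%) only in *C3ar1*. A match is a description of the letters and not a measured site.

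Levels are given as FPKM rescaled by the TMM library factors that the test also used, so that they follow the fold changes. Libraries held 13521200 to 18601445 counts. Control replicate 3 had the lowest share of mitochondrial counts (14.6%, against up to 28.9%), DOX replicate 4 the highest T cell marker sum (76.1 scaled FPKM, against at most 12.1 elsewhere), and Tb replicate 5 the highest neutrophil marker sum. Each comparison below was also run without these 3 libraries. One coefficient per group was fitted in edgeR, and genes with a Benjamini-Hochberg adjusted p under 0.05 over all genes tested are said to have risen or fallen (called). Genes called whose level at least doubled or halved (1 or more on the log2 scale) are referred to as DEGs. The comparisons share libraries, and DOX against Control has none in common with Tb-DOX against Tb. Nothing in the labels says that libraries of a group came from separate mice, so p-values measure the spread between these libraries. In bulk tissue, fewer cells of a type and less RNA per cell cannot be told apart.

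In Control hearts *Serping1* had the highest level per length of the 9 genes, at 37.2 ± 3.05 scaled FPKM (mean ± SD, n = 5), and *C3ar1* the lowest, at 1.06 ± 0.252. Between them stood *C1qa* at 22.7 ± 6.02, *C1qb* at 16.4 ± 0.677, *C3* at 16.2 ± 5.19, *C1qc* at 8.48 ± 0.503, *C1s1* at 8.34 ± 1.43, *C1ra* at 4.26 ± 0.693 and *C4b* at 2.03 ± 0.934 scaled FPKM. Of neighbours in this order, the libraries were apart only between *C1qa* and *C1qb*, between *C3* and *C1qc* and between *C1s1* and *C1ra*; the other pairs overlapped. In Tb and Tb-DOX hearts *C3* stood second by mean level, overlapping with both neighbours, *Serping1* and *C1qa*.

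**Figure D1:**
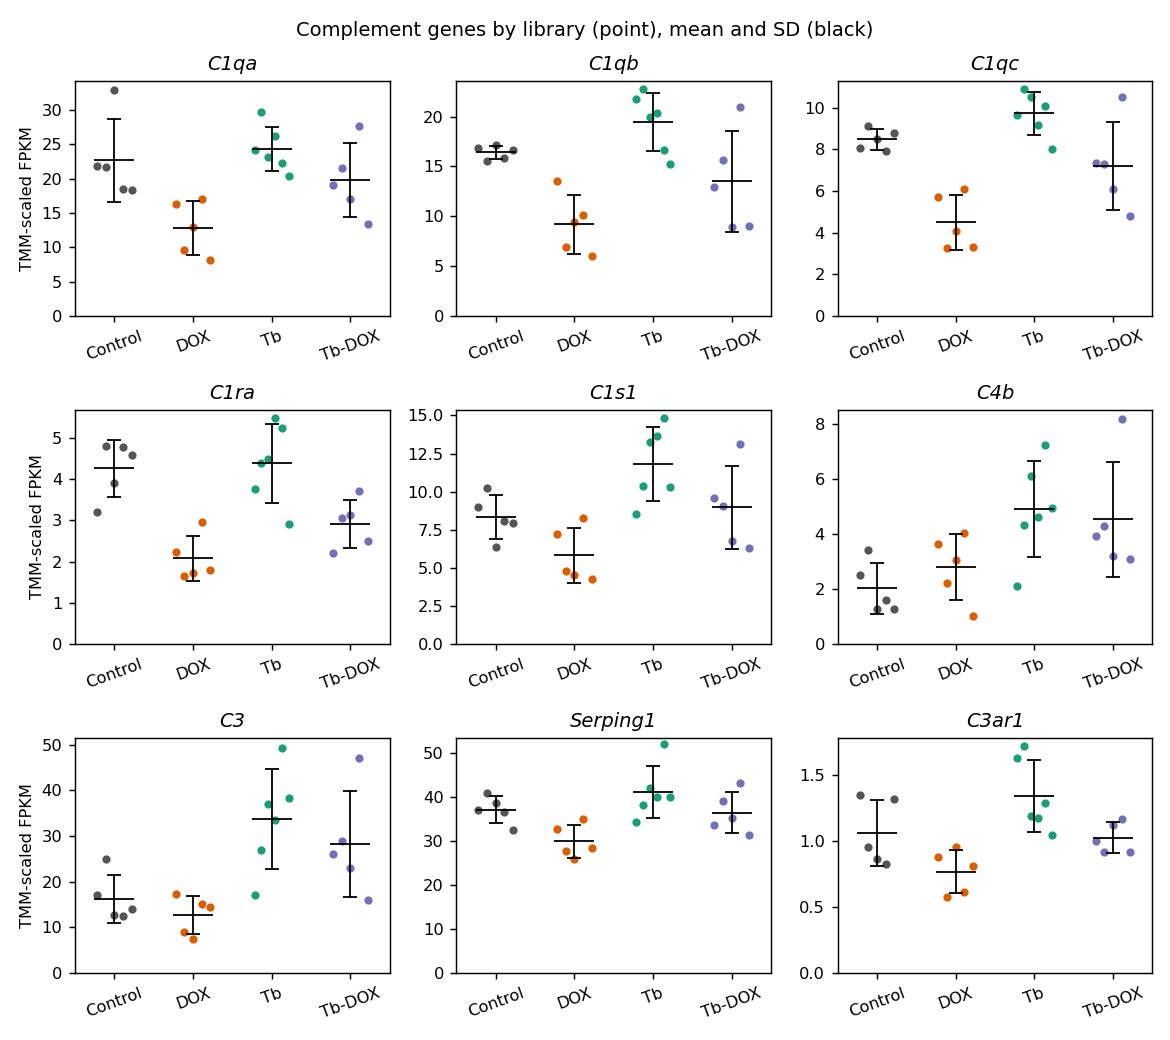
TMM-scaled FPKM (vertical axes, each from 0) of the 9 complement genes in each library (points) of Control, DOX, Tb and Tb-DOX hearts (horizontal axes), with the group mean and SD in black. For *C1qa*, *C1qb*, *C1qc* and *C1ra* the 5 DOX points lie below the 5 Control points, and for *C3* and *C4b* the highest points are Tb and Tb-DOX libraries.

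The first comparison asked how doxorubicin changed these genes in hearts of mice without a tumor. All 3 C1q subunits, the protease *C1ra* and the inhibitor *Serping1* fell, and none rose. These are 5 of 9 genes, where 18.2% of all genes tested fell, 18.0% rose and 36.2% were called in either direction. *C1ra* was the only DEG among them, where 5.79% of all genes were DEGs that fell. For 4 of the 9 genes every DOX library lay below every Control library, as for 13.3% of all genes tested. The median log2 fold change of the 9 genes was −0.52, against 0.0024 for all genes tested.

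*C1qa*, the A chain of C1q, had 21.8, 21.7, 33.0, 18.5 and 18.3 scaled FPKM in Control replicates 1 to 5 and 16.3, 9.59, 12.9, 17.1 and 8.15 in DOX. The groups did not overlap, and Control replicate 3 stood above the other Control libraries. *C1qa* fell with DOX by 0.82 on the log2 scale (SE 0.211, edgeR adjusted p = 0.00451). The B chain gene *C1qb* had 16.8, 15.6, 17.2, 15.9 and 16.6 scaled FPKM in Control and 13.5, 6.89, 9.44, 10.2 and 5.97 in DOX. The Control libraries were close together, and all DOX libraries lay below them. *C1qb* fell by 0.83 (log2, SE 0.217, edgeR adjusted p = 0.00508). *C1qc*, which encodes the C chain, had 8.08, 9.12, 8.50, 7.90 and 8.80 scaled FPKM in Control and 5.69, 3.24, 4.09, 6.11 and 3.32 in DOX. Again no DOX library reached the lowest Control library. *C1qc* fell by 0.92 (log2, SE 0.186, edgeR adjusted p = 7.60e-04). In the whole group, DOX replicates 1 and 4 had the highest and replicates 2 and 5 the lowest C1q levels, with replicate 3 between them.

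*C1ra* encodes the protease C1r, which activates C1s. It had 3.21, 4.81, 3.90, 4.79 and 4.59 scaled FPKM in Control and 2.24, 1.66, 1.73, 2.96 and 1.81 in DOX. No DOX library reached the lowest Control library. *C1ra* fell by 1.03 (log2, SE 0.194, edgeR adjusted p = 3.82e-04), a fold of 2.05. Of the 100-base windows of its longest transcript, 34.5% are shared with its copy *C1rb*, which had at most 41 counts in a library, so reads could be split between the pair. *C1s1*, the gene of the protease C1s, had 9.01, 10.3, 6.38, 8.07 and 7.97 scaled FPKM in Control and 7.22, 4.82, 4.53, 8.28 and 4.28 in DOX. The groups overlapped through DOX replicates 1 and 4, and the change of −0.52 (log2, SE 0.212) was not called (edgeR adjusted p = 0.0609). The call depended on the processing, since *C1s1* was called with library totals, a mean FPKM of 5 or more, either limma fit, only the groups compared and without the 3 libraries together. Its copy *C1s2*, which shares 7.90% of the windows of *C1s1*, had at most 19 counts in a library. The level of *C1s1* relative to *C1ra* had a median of 1.74 in Control and 2.80 in DOX, with overlapping ranges (1.64 to 2.81 and 2.37 to 3.22).

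*Serping1*, the gene of C1 inhibitor, had 37.2, 40.9, 38.7, 36.5 and 32.6 scaled FPKM in Control and 32.8, 27.7, 26.0, 35.1 and 28.4 in DOX. DOX replicates 1 and 4 reached into the range of the Control libraries. *Serping1* fell by 0.31 (log2, SE 0.112, edgeR adjusted p = 0.0339), the smallest of the changes called. Each library was left out in turn, in 21 fits, and 7 of these lost the call (Control replicates 1, 2, 3 and 4 and DOX replicates 2, 3 and 5; adjusted p up to 0.102). It was kept without the 3 libraries named above and lost with no filter. Relative to *C1ra*, its level had a median of 8.50 in Control (7.11 to 11.6) and 15.0 in DOX (11.8 to 16.7), ranges that did not overlap. Relative to *C1s1*, the median was 4.13 in Control (3.99 to 6.06) and 5.73 in DOX (4.23 to 6.64), ranges that overlapped.

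edgeR did not call *C3*, *C4b* or *C3ar1*. *C3* had 17.1, 24.9, 12.7, 12.4 and 14 scaled FPKM in Control and 17.4, 8.90, 7.50, 15.0 and 14.4 in DOX, a log2 difference of −0.36 (SE 0.290, edgeR adjusted p = 0.346). *C4b*, whose product C1s cleaves, had 2.53, 3.44, 1.30, 1.60 and 1.29 scaled FPKM in Control and 3.64, 2.24, 3.05, 4.06 and 1.04 in DOX, and its difference of 0.47 (log2, SE 0.363, edgeR adjusted p = 0.324) was the only positive value among the 9 genes. The libraries of both groups were mixed in both genes. *C3ar1* differed by −0.46 (log2, SE 0.197, edgeR adjusted p = 0.0693), with 32 to 90 counts per library in these groups, and was called with library totals and with either limma fit. The calls of *C1qa*, *C1qb*, *C1qc* and *C1ra* were kept in each of the 21 fits, with log2 fold changes of −0.94 to −0.64, −1.01 to −0.71, −1.04 to −0.82 and −1.19 to −0.97, and without the 3 libraries together 6 genes were called.

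In tumor-bearing mice the same drug comparison called none of the 9 genes. Every one of them had a negative difference between Tb-DOX and Tb, from −0.59 for *C1ra* to −0.11 for *C4b* on the log2 scale, with a median of −0.39 against −0.0223 for all genes tested. edgeR gave 4 genes an unadjusted p under 0.05 (*C1qb*, *C1qc*, *C1ra* and *C3ar1*), as it gave 2855 of the 13990 genes tested. DESeq2 called 1 (*C1ra*) and limma on log2 FPKM called 0. Of all genes tested, 4.72% were called in this comparison and 2.54% fell. No gene of the 9 had all Tb-DOX libraries below all Tb libraries, as 2.22% of all genes had.

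*C1ra* came closest to the threshold (SE 0.182, edgeR adjusted p = 0.0650): its lowest, median and highest levels were 2.90, 4.44 and 5.49 scaled FPKM in Tb, and Tb-DOX libraries had 2.21, 3.06, 3.12, 3.70 and 2.50. For *C1qb* the Tb levels were 15.2, 20.1 and 22.7 (lowest, median, highest), and the Tb-DOX libraries had 12.9, 15.7, 8.95, 20.9 and 8.98 scaled FPKM. Its difference was −0.52 (log2, SE 0.204, edgeR adjusted p = 0.145). In Tb-DOX the C1q genes spread widely, with replicate 4 at the upper and replicate 5 at the lower end for *C1qa* and *C1qc*. *C1qa* had 20.4, 23.7 and 29.7 scaled FPKM in Tb (lowest, median, highest) and 19.1, 21.6, 17.0, 27.7 and 13.3 in Tb-DOX, a log2 difference of −0.30 (SE 0.199, edgeR adjusted p = 0.422). *C1qc* had 8.02, 9.87 and 10.9 in Tb and 7.32, 7.28, 6.09, 10.5 and 4.81 in Tb-DOX, a difference of −0.43 (log2, SE 0.174, edgeR adjusted p = 0.160). Without Tb-DOX replicate 4, *C1qb* and *C1qc* were called, so this library decided whether the count was 0 or 2. Without DOX replicate 4 or Tb replicate 6, which enter through the shared fit or the Tb group, *C1ra* was called. The remaining differences were −0.40 for *C1s1*, −0.26 for *C3*, −0.17 for *Serping1* and −0.39 for *C3ar1* on the log2 scale, with edgeR adjusted p from 0.234 to 0.649.

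Whether the drug effect differed between mice with and without a tumor was tested as an interaction, the Tb-DOX minus Tb change less the DOX minus Control change. None of the 9 genes was called, where 8.94% of all genes tested were called, and DESeq2 and limma called none either. None of the 9 had an unadjusted p under 0.05 in edgeR, which 4041 of the 13990 genes tested had. The interaction values on the log2 scale ran from −0.58 for *C4b* (SE 0.495, edgeR adjusted p = 0.450) to 0.53 for *C1qa* (SE 0.288, adjusted p = 0.228). The 3 C1q genes and *C1ra* had values of 0.31 to 0.53, which means a smaller decrease in tumor-bearing hearts as a point estimate, with SEs of 0.254 to 0.296. A difference in the drug effect between the states was therefore not shown for any of these genes, nor was equality.

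**Figure D2:**
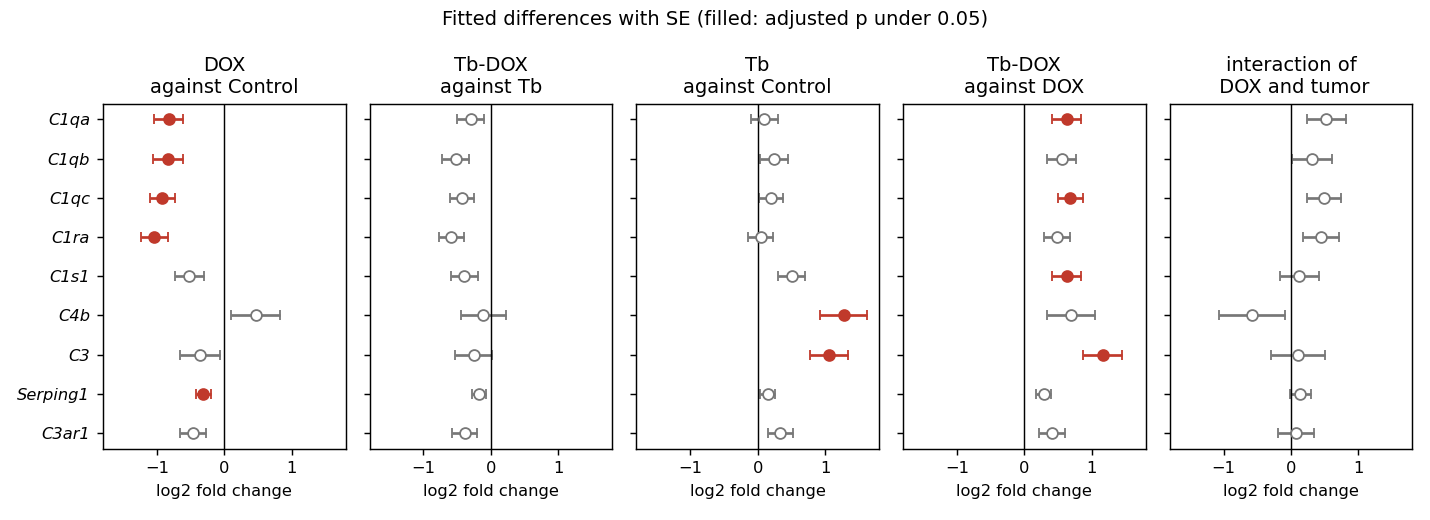
Log2 fold changes (horizontal axes) of the 9 genes (vertical axis) in the 4 comparisons and the interaction, with bars of ± 1 SE from edgeR; filled points had an adjusted p under 0.05. In DOX against Control 5 points are filled, all left of 0, in Tb-DOX against Tb and in the interaction none is, and with a tumor 2 (Tb against Control) and 4 (Tb-DOX against DOX) are filled to the right of 0.

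The tumor by itself went with higher *C3* and *C4b*. Between Tb and Control these 2 of 9 genes rose and none fell, where 6.28% of all genes tested were called and 699 of the 13990 rose. Both were DEGs, as were 3.48% of all genes in the upward direction. None of the 9 had all Tb libraries above all Control libraries, which 4.22% of all genes tested had. The median log2 fold change of the 9 genes was 0.24, against −0.0084 for all genes tested.

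*C3* had 17.1, 27.0, 37.1, 33.4, 49.4 and 38.4 scaled FPKM in Tb replicates 1 to 6, against 12.4 to 24.9 in Control. Tb replicate 1 lay within the range of the Control libraries, and the 5 others above it. *C3* rose by 1.06 (log2, SE 0.281, edgeR adjusted p = 0.0248), a fold of 2.08. *C4b* had 2.12, 4.34, 6.13, 4.64, 7.25 and 4.97 scaled FPKM in Tb, against 1.29 to 3.44 in Control. Here too Tb replicate 1 was the only Tb library within that range. *C4b* rose by 1.28 (log2, SE 0.351, edgeR adjusted p = 0.0309), a fold of 2.42. Its copy *C4a*, which shares 16.5% of the 100-base windows of the longest *C4b* transcript, had at most 26 counts in a library. The calls rested on few libraries: that of *C3* was lost without Control replicates 3, 4 or 5 or Tb replicates 5 or 6 (log2 fold change down to 0.92, adjusted p up to 0.0767), and that of *C4b* without these or Tb replicate 3 (down to 1.14, adjusted p up to 0.0911). Without Control replicate 3, DOX replicate 4 and Tb replicate 5 together, 0 of 9 genes were called by edgeR. It gave 2 of them an unadjusted p under 0.05, as it gave 2336 of the 13990 genes tested. In this fit *C3* differed by 0.84 and *C4b* by 1.01 on the log2 scale.

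The other 7 genes were not called between Tb and Control. *C1s1* differed by 0.51 (log2, SE 0.201, edgeR adjusted p = 0.153), with 8.52, 11.8 and 14.9 scaled FPKM as the lowest, median and highest Tb libraries against 6.38 to 10.3 in Control. The C1q genes and *C1ra* differed by 0.04 to 0.24 on the log2 scale, *Serping1* by 0.15 and *C3ar1* by 0.34 (edgeR adjusted p from 0.303 to 0.914). *Serping1* had 34.4, 40.1 and 52.2 scaled FPKM in Tb, and Tb replicates 3 and 5 lay above the highest Control library (40.9). *C3ar1* had 1.05, 1.24 and 1.72 in Tb and 0.820 to 1.343 in Control, at 47 to 112 counts per library.

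Between doxorubicin-treated hearts with and without a tumor, *C3* showed the largest difference, and *C1qa*, *C1qc* and *C1s1* were also called higher with the tumor. In Tb-DOX against DOX *C3*, *C1qc*, *C1qa* and *C1s1* rose, 4 of 9 genes, where 9.52% of all genes tested rose, 7.93% fell and 17.5% were called. *C3* was the only DEG among them, where 4.37% of all genes were DEGs that rose. No gene of the 9 had all Tb-DOX libraries above all DOX libraries, which 7.64% of all genes tested had.

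*C3* had 26.1, 28.8, 23.0, 47.1 and 16.0 scaled FPKM in Tb-DOX, against 7.50 to 17.4 in DOX. Only Tb-DOX replicate 5 lay below the highest DOX library. *C3* rose by 1.16 (log2, SE 0.292, edgeR adjusted p = 0.00897), a fold of 2.23, and stayed called whichever library was left out (0.90 to 1.31). *C1qc* rose by 0.68 (log2, SE 0.186, edgeR adjusted p = 0.0147). This call was lost with only these 2 groups in the fit. Among fits with 1 library left out, it was lost only without Tb-DOX replicate 4 (0.51). *C1qa* rose by 0.63 (log2, SE 0.211, edgeR adjusted p = 0.0436), but 11 of 21 such fits did not call it (Control 1 and 2, DOX 2, 3 and 5, Tb 3 and 4, and Tb-DOX 1, 2, 3 and 4). *C1s1* rose by 0.63 (log2, SE 0.212, edgeR adjusted p = 0.0448), from 4.28 to 8.28 scaled FPKM in DOX to 9.57, 9.10, 6.75, 13.1 and 6.34 in Tb-DOX. It was not called in 13 of 21 such fits (Control 1, 4 and 5, DOX 2, 3 and 5, Tb 2, 3, 4 and 6, and Tb-DOX 1, 2 and 4). The differences of *C1qb* (0.55, adjusted p = 0.0815), *C1ra* (0.49, 0.0852), *C4b* (0.70, 0.183), *Serping1* (0.29, 0.0815) and *C3ar1* (0.41, 0.153) were positive on the log2 scale and not called by edgeR. *C4b* had 3.93, 4.29, 3.22, 8.17 and 3.11 scaled FPKM in Tb-DOX, with replicate 4 apart from the others. This count depended on the scaling. With library totals in place of TMM factors 8 of the 9 genes were called, and the median of all genes stood at 0.18 (log2). With median-ratio scaling 3 were called, without *C1s1*, and with only these 2 groups in the fit 1 was (*C3*).

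Among libraries of the same group the 9 genes varied together to differing degrees. After removal of group means, log2 CPM of the C1q genes correlated with each other at 0.82 to 0.86 (Pearson, 21 libraries), and *C3*, *C4b*, *C1s1* and *Serping1* at 0.67 to 0.84. Between these, *C1qc* and *C1s1* reached 0.78, and *C1ra* correlated with the C1q genes and *C1s1* at 0.41 to 0.63. *C3ar1* correlated with the other 8 at −0.26 to 0.32. These values are descriptions, since the points share their libraries and scaling. Within C1q, *C1qb* stood at a median of 0.772, 0.730, 0.771 and 0.679 of *C1qa* in Control, DOX, Tb and Tb-DOX, and *C1qc* at 0.421, 0.350, 0.396 and 0.361. The ranges of all groups overlapped, for *C1qb* only narrowly between Tb (0.746 to 0.901) and Tb-DOX (0.527 to 0.754). *C3* relative to *C4b* had a median of 7.74 in Control, 3.97 in DOX, 7.0 in Tb and 6.63 in Tb-DOX, and its range in DOX (2.46 to 13.8) held those of the other groups. By the same measure, the tested genes outside the 9 that varied most like *C1qa* were *Prim1*, *Anapc7* and *Ppp1r1a* (r = 0.77, 0.76 and 0.74). Those most like *C3* were *Stxbp2*, *Rhog* and *Gpc3* (0.86, 0.85 and 0.83), and those most like *Serping1* were *Tlr7*, *Gm49172* and *Igfbp4* (0.89, 0.87 and 0.85). For *C4b* they were *Dcaf15*, *AI662270* and *Serpina3n* (0.86, 0.85 and 0.84) and for *C3ar1* *Mal*, *Arhgef10l* and *Nid2* (0.72, 0.72 and 0.71).

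Macrophage markers were compared beside the C1q genes. For these and the marker lists below, 36.2% of all genes tested were called in DOX against Control and 4.72% in Tb-DOX against Tb. Shares were 6.28% in Tb against Control, 17.5% in Tb-DOX against DOX and 8.94% in the interaction. Of 9 markers, all above the minimum, 5 fell with DOX against Control (*Adgre1*, *Aif1*, *Csf1r*, *Cx3cr1* and *Mrc1*), where 18.2% of all genes tested fell. The other 4 were not called, with log2 differences of −0.46 for *Cd163*, −0.81 for *Fcgr1*, 0.47 for *Cd68* and 0.28 for *Lyve1*. In Tb-DOX against Tb, where no C1q gene was called, 2 fell, between Tb and Control none was called, and in Tb-DOX against DOX 3 rose. Their summed level ran from 21.3 to 29.9 scaled FPKM in Control, 14.1 to 25.1 in DOX, 27.2 to 34.3 in Tb and 18.8 to 35.2 in Tb-DOX, and none of the 9 was at 0 in a whole group. Divided by this sum, the summed C1q level was 1.57 to 2.75 in Control and 1.16 to 1.41 in DOX, ranges that did not overlap, 1.27 to 2.04 in Tb and 1.30 to 1.68 in Tb-DOX. The 2.75 was that of Control replicate 3 alone, and the other 4 Control libraries were at 1.57 to 1.76, still above all DOX libraries. The part of macrophage content in the C1q differences was not tested.

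Neutrophil markers rose together with *C3* and *C4b* in Tb against Control, but not in every comparison. Of 7 markers, all above the minimum, 5 rose with DOX against Control, where *C3* and *C4b* were not called and *C3* differed by −0.36 on the log2 scale. All 7 rose in Tb against Control and in Tb-DOX against DOX, where *C3* rose and *C4b* was not called, and their sum was 1.54 to 5.06 scaled FPKM in Control, 9.72 to 84.2 in DOX, 777 to 6949 in Tb and 1193 to 4977 in Tb-DOX. *Ly6g* was at 0 in all Control libraries. The lowest *C3* levels of the tumor-bearing groups were in Tb replicate 1 and Tb-DOX replicate 5, which also had the lowest neutrophil sums of their groups, and the highest in Tb replicate 5 and Tb-DOX replicate 4, which had the highest sums. Among libraries without a tumor, DOX replicate 3 had the highest neutrophil sum and the lowest *C3* level (7.50). STAT3 and acute phase genes rose in Tb against Control (6 of 6), in DOX against Control (3 of 6) and in Tb-DOX against DOX (3 of 6). Their sums were 15.5 to 32.2 scaled FPKM in Control, 24.4 to 62.4 in DOX, 34.3 to 367.6 in Tb and 42.2 to 167.0 in Tb-DOX, while none of 7 interferon-stimulated genes was called by edgeR in any comparison. The part of these cells and genes in the *C3* and *C4b* differences was not tested.

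**Figure D3:**
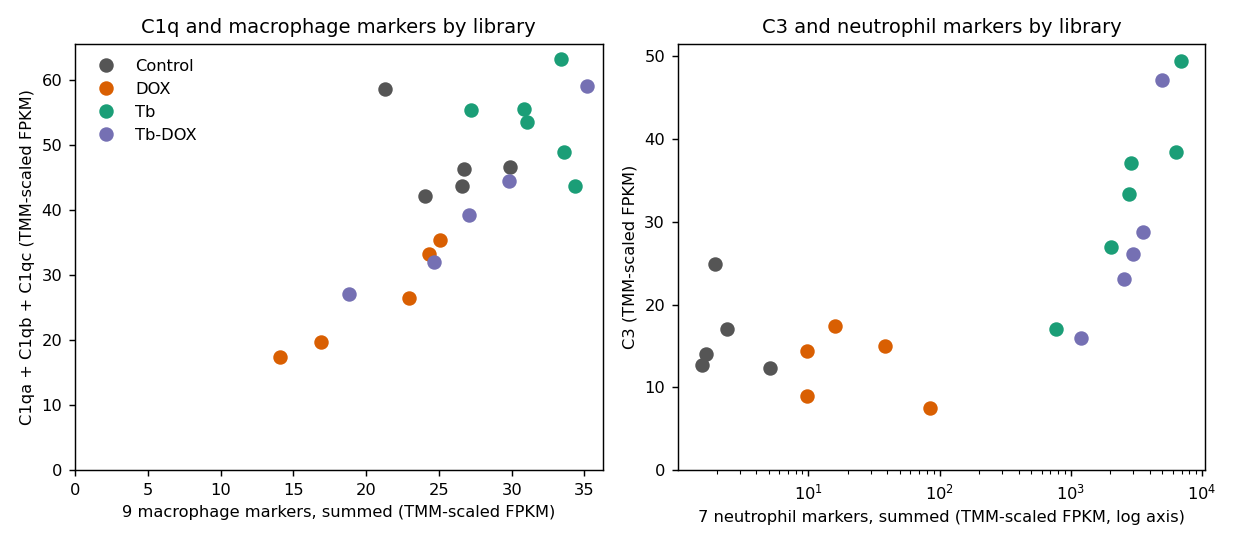
Left, summed C1q level against the summed level of 9 macrophage markers, and right, *C3* level against the summed level of 7 neutrophil markers on a log axis, all in TMM-scaled FPKM with 1 point per library and colors for the 4 groups. The 3 lowest C1q sums are those of DOX libraries (17.4, 19.7 and 26.5), and the tumor-bearing libraries stand apart on the neutrophil axis (777 and above).

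Fibroblast markers, whose cells can make C1r, C1s, C3 and C1 inhibitor, also differed with DOX. Of 7 markers 4 fell and 1 rose against Control, where 18.2% of all genes tested fell and 18.0% rose. Their sum was 562 to 597 scaled FPKM in Control and 353 to 426 in DOX. In Tb the sum was 342 to 501 and in Tb-DOX 306 to 447, with 2 markers lower in Tb-DOX than in Tb and none called between Tb and Control. In Tb-DOX against DOX 1 marker rose (*Lum*) and 2 fell (*Dcn* and *Pdgfra*), and the interaction was called in 3, all positive. Their part in the differences of *C1ra* and *Serping1* was not tested. Erythroid and cardiomyocyte markers differed with DOX as well. All 5 erythroid markers fell in DOX against Control and in Tb-DOX against Tb, with sums of 256.5 to 1001 scaled FPKM in Control, 5.29 to 164.6 in DOX, 461 to 1043 in Tb and 2.86 to 35.0 in Tb-DOX. Of 5 cardiomyocyte markers 2 rose in each of these comparisons (*Myh6* and *Tnnt2*), and their sums were 9627 to 12560 in Control, 11960 to 15840 in DOX, 7604 to 9832 in Tb and 9972 to 13760 in Tb-DOX. The part of these cells in the differences of the 9 genes was not tested. The 5 hepatocyte markers summed to at most 2.75 scaled FPKM in a library, with *Alb* at 0 in all Control libraries and *Fgb* at 0 in all Control, DOX and Tb libraries. The 1 of them above the minimum, *Ttr*, rose with DOX against Control by 3.70 (log2, SE 0.726, edgeR adjusted p = 5.69e-04).

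Other complement genes were taken from a list of 46, of which 20 passed the expression minimum. With DOX in mice without a tumor 5 of the 20 fell and 1 rose, in Tb-DOX against Tb 1 fell, in Tb against Control 3 rose, and in Tb-DOX against DOX 5 rose. The shares and counts over all genes tested are those given above. The median log2 fold changes of the 20 genes were −0.16, −0.09, −0.08 and 0.17 in this order. The interaction was called in 2 genes, both positive, where 3.95% of all genes tested had a positive call.

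The lectin pathway recognizes sugars, and 3 of the 4 tested genes listed under it here fell with DOX against Control. *Colec12*, a scavenger receptor of the collectin family, fell by 0.95 (log2, SE 0.131, edgeR adjusted p = 2.21e-05), with 3.87 to 5.55 scaled FPKM in Control and 2.03 to 2.94 in DOX. *Colec11*, a soluble collectin, fell by 0.95 as well (SE 0.266, adjusted p = 0.00859), and *Masp1*, a lectin pathway protease, by 0.46 (SE 0.167, adjusted p = 0.0349). Leaving out a library ended the call of *Masp1* in 6 of 21 fits (Control 1, 2 and 3 and DOX 2, 3 and 5), and it was also lost with no filter, with only the groups compared and without the 3 libraries together. The other tested gene, *Fcna*, which encodes a ficolin, was not called, with a difference of 1.05 (log2, edgeR adjusted p = 0.0615) and means of 0.640 scaled FPKM in Control and 1.33 in DOX. For *Colec12* the drug effect differed between the states (interaction 0.66, SE 0.179, edgeR adjusted p = 0.0289), a call lost without Control replicate 4 or DOX replicate 3. In Tb-DOX it stood at 3.01 to 3.35 and in Tb at 2.86 to 4.66 scaled FPKM.

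Of the alternative pathway only *Cfp*, the gene of properdin, which stabilizes the C3 convertase, was above the minimum. It had 3.09 to 5.45 scaled FPKM in Control, 1.40 to 2.64 in DOX, 4.33 to 8.56 in Tb and 3.30 to 5.87 in Tb-DOX. *Cfp* fell with DOX against Control by 1.13 (log2, SE 0.215, edgeR adjusted p = 4.26e-04) and rose in Tb-DOX against DOX by 1.25 (SE 0.214, adjusted p = 3.71e-04). The groups did not overlap in either comparison. Among regulators on the cell membrane, *Cd55*, which speeds the decay of C3 convertases, fell with DOX by 1.42 (log2, SE 0.196, edgeR adjusted p = 2.23e-05), from 2.38 to 3.20 scaled FPKM in Control to 0.669 to 1.37 in DOX. In tumor-bearing mice it was at 2.01 to 3.08 in Tb and 1.74 to 2.85 in Tb-DOX, so all Tb-DOX libraries lay above the DOX libraries (log2 difference 1.07, SE 0.195, edgeR adjusted p = 7.45e-04). The drug effect on *Cd55* differed between the states (interaction 1.13, SE 0.263, edgeR adjusted p = 0.0178), and stayed called whichever library was left out.

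*Cd46*, a cofactor for cleavage of C3b that mouse tissues outside the testis carry little of, rose with DOX by 0.86 (log2, SE 0.321, edgeR adjusted p = 0.0414), at 0.385 to 0.583 scaled FPKM in Control and 0.519 to 1.56 in DOX. Leaving out a library ended this call in 8 of 21 fits (any Control library, and DOX 1, 3 and 4), and it was also lost with library totals, with limma and without the 3 libraries together. *Clu* was the most abundant of the 20 genes (means of 72.1 to 99.0 scaled FPKM per group) and was not called in any comparison.

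In the terminal pathway, which forms the membrane attack complex, *C7* fell in Tb-DOX against Tb by 1.49 (log2, SE 0.343, edgeR adjusted p = 0.0170). It had 3.10 to 4.60 scaled FPKM in Tb and 0.824 to 1.89 in Tb-DOX, groups that did not overlap, and the call was lost only without Tb-DOX replicate 5. Between DOX and Control *C7* differed by −0.84 on the log2 scale and was not called. Of the receptors, *C5ar1*, the receptor of C5a, and *Itgam* and *Itgb2*, the chains of complement receptor CR3, rose with a tumor: by 3.15, 4.02 and 3.65 in Tb against Control and by 3.27, 3.22 and 3.49 in Tb-DOX against DOX (log2, SE 0.345 to 0.475, edgeR adjusted p at most 6.71e-05). All tumor-bearing libraries lay above all libraries without a tumor in the same drug state. These receptors are carried by neutrophils and monocytes. Neutrophil markers are given above, and of 4 markers of recruited monocytes 4 rose in Tb against Control and 3 in Tb-DOX against DOX. In DOX against Control 2 rose and 1 fell, and in Tb-DOX against Tb 1 fell, where none of the 3 receptors was called. Monocyte marker sums were 1.14 to 1.8 scaled FPKM in Control, 2.17 to 6.16 in DOX, 5.11 to 70.9 in Tb and 6.46 to 44.6 in Tb-DOX. The part of those cells was not tested.

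**Figure D4:**
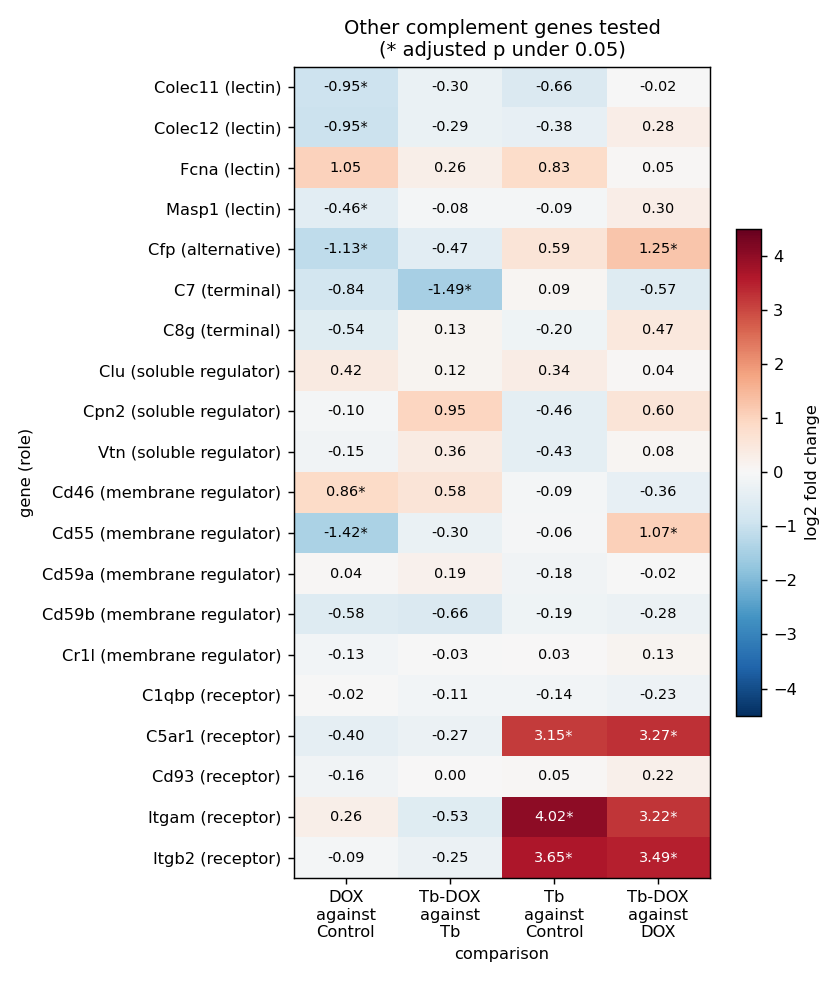
Log2 fold changes (color and printed value) of the 20 other complement genes tested, by role (rows), in 4 comparisons (columns), with a star where the edgeR adjusted p was under 0.05. The DOX against Control column holds 5 starred decreases and 1 starred increase, and the receptors *C5ar1*, *Itgam* and *Itgb2* are starred only in the 2 columns that compare tumor with no tumor.

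The 26 genes of the list below the minimum included several components known to be made mainly in the liver. *C8b* and *Mbl1* had 0 counts in all 21 libraries, *C9* at most 2, *C8a* at most 3, *Mbl2* and *Cpn1* at most 1, and *Hc*, the gene of C5, at most 17. *C2*, the partner of C4 in the classical convertase, had at most 27 counts in a library and *Cfb*, its counterpart in the alternative pathway, at most 35. These genes were not tested in the comparisons above.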

How the data were processed

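RNA libraries of mouse hearts (Control 5, DOX 5, Tb 6, Tb-DOX 5) were analysed as 4 groups taken from the labels. The authors deposited 1 table that holds, for each gene in each library, the read count and the FPKM. Per the labels, RNA was DNase-treated and enriched with oligo(dT) beads or by rRNA depletion, and libraries were sequenced as paired ends. The submitters' processing notes name cutadapt, FastQC, HISAT2, HTSeq 0.6.1, DESeq2 1.34.0 and GRCm39, and strandedness is not given in the sources used here. The deposited FPKM values equalled the count divided by gene length and library total in 100% of values (tolerance 0.0051). Total counts were 13521200 to 18601445 per library, so genes with few counts carry the largest counting error.

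Counts were tested in R 4.3.3 with edgeR 4.0.16 (TMM scaling with factors of 0.881 to 1.14, quasi-likelihood F tests, 1 coefficient per group, two-sided). Of 34543 genes above 0, the 13990 whose FPKM averaged 0.5 or more entered the test, with Benjamini-Hochberg adjustment over all of them. Each SE was the log2 fold change divided by the square root of F. The method was tested on simulated data. Printed levels are counts per kilobase, divided by the TMM-scaled library size on the FPKM scale. Near copies were compared on GENCODE M21 transcripts.

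The 9 genes, the list of 46 other complement genes and the marker lists were chosen with earlier results of these data known, so counts over them are descriptions. Named were all 9 genes, each gene of the 46 called in a comparison, marker sums and genes at 0, and for 5 of the 9 the 3 genes that varied most alike; *Clu*, *C8b*, *Mbl1*, *C9*, *C8a*, *Mbl2*, *Cpn1*, *Hc*, *C2*, *Cfb*, *Fcna*, *Ttr*, *Lum*, *Dcn*, *Pdgfra*, *Myh6*, *Tnnt2* and the macrophage markers were named after their values were seen. Some genes are not reported here and were left out of the list and its counts.

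Alternatives were median-ratio scaling, library totals, no filter, a mean FPKM of 5 or more, DESeq2 1.42.0, limma 3.58.1 on log2(FPKM + 0.1) and log2(FPKM + 1), only the groups compared, robust moderation, a replicate block and leaving out each library. Leaving out 3 libraries together was added after the data were seen. Replicates of a group differed by more than counting error (chi-square per degree of freedom at least 5.33).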

Additional observations from a re-analysis of the deposited data

Results flagged for a closer look

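Over the 9 genes and 4 groups, 36 sets of libraries were checked with Dixon's criterion, which flags about 1 in 20 by chance, and 2 were past it. *C1qa* in Control had its highest library, replicate 3, at 33.0 scaled FPKM, far above the other 4 (18.3 to 21.8). *C4b* in Tb-DOX had its highest library, replicate 4, at 8.17 scaled FPKM, against 3.11 to 4.29 in the other 4. Control replicate 3 was also the library with the lowest share of mitochondrial counts, and *C1qa* fell with DOX without it too (log2 fold change −0.64).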

How the results depend on the processing

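Of the counts of complement genes called, those for DOX against Control (5 of 9) and for the interaction (0 of 9) stayed within 1.5 times under every alternative run. In Tb-DOX against Tb the count of 0 became 1 with DESeq2 and 1 with the replicate block, and 0 to 2 when a library was left out. In Tb against Control the count of 2 became 1 at a mean FPKM of 5 or more, where 6 of the 9 genes were tested, 0 with the replicate block, 0 without Control replicate 3, DOX replicate 4 and Tb replicate 5 together, and 0 to 2 when a library was left out. In Tb-DOX against DOX the count of 4 became 8 with library totals, 8 with limma on log2(FPKM + 0.1), 7 with log2(FPKM + 1), 1 with only the groups compared, and 1 to 5 when a library was left out. Of the 20 other complement genes, those called at that FPKM minimum were 1, 0, 1 and 2 in DOX against Control, Tb-DOX against Tb, Tb against Control and Tb-DOX against DOX, and 0 in the interaction, where fewer genes were tested. For Tb against Control, 3 became 6 with no filter, which added *Fcnb*, *Hc* and *C5ar2* from below the minimum, and 5 with DESeq2, and for Tb-DOX against DOX 5 became 8 with library totals and 8 with either limma fit. Leaving out a library gave 0 to 1 in Tb-DOX against Tb, 3 to 5 in Tb against Control and 1 to 2 in the interaction.

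Directions that turned were all of values not called. *C4b* in Tb-DOX against Tb gave −0.4272 to 0.0359 when a library was left out and 0.0343 without the 3 libraries, and *C1ra* in Tb against Control gave −0.0451 without the 3 libraries and −0.0437 to 0.14 when a library was left out. Left-out libraries gave interactions of −0.0579 to 0.2663 for *C1s1*, −0.1633 to 0.2504 for *C3* and −0.0242 to 0.1632 for *C3ar1*.

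Same-numbered libraries of different groups did not vary together (residual correlations of −0.261 to 0.233 over 30 pairs), so the numbers were taken as names only. Whether such libraries shared a batch was not tested. With the replicate block 5 of 9 genes were called in DOX against Control, without *Serping1* and with *C1s1*, and 5 in Tb-DOX against DOX. *Serping1* was also not called with no filter, and *Cd46* was not called in DOX against Control with the replicate block. Over all genes tested, the counts called of 5071, 660, 879, 2442 and 1251 (DOX against Control, Tb-DOX against Tb, Tb against Control, Tb-DOX against DOX, interaction) became 2496, 481, 334, 948 and 551 at that minimum (5668 genes tested). For Tb-DOX against Tb they became 1167 without the 3 libraries, 1074 with DESeq2, 420 and 480 with limma, 351 with only the groups compared and 260 to 938 when a library was left out. With the replicate block they became 469 for Tb against Control and 506 for the interaction, which gave 2005 with DESeq2 and 657 to 1721 when a library was left out. With library totals 1419 genes rose and 3532 fell with DOX against Control, where TMM gave 2523 and 2548, and the median of all genes stood at −0.14 on the log2 scale with library totals, and in Tb-DOX against DOX 2535 rose and 323 fell, against 1332 and 1110. The cause of the other moves was not tested. *C3ar1* had 32 to 112 counts per library, and whether depth limited its calls was not tested.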
